A study of Rattus norvegicus with 78 samples.

Results

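Gene expression was compared between Flinders Sensitive Line (FSL) and Flinders Resistant Line (FRL) rats in the hippocampus (HIP) of the first animal cohort. The members were the arrays whose labels gave hippocampus and cohort 1, and they were 21 of the 78 arrays of the series, 9 FSL and 12 FRL. Both lines were bred from Sprague-Dawley rats by selection on the response to a cholinesterase inhibitor, with FSL the sensitive line used as a model of depression and FRL its counter-selected control line. Per the methods, the animals were adult males that had been through a forced swim test, and the right hippocampus was used. The labels give no drug treatment for either line. The remaining arrays came from the hippocampus of cohort 2 (8 FSL and 10 FRL rats) and from the prefrontal/frontal cortex (P/FC) of both cohorts.

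The hippocampus joins the granule cells of the dentate gyrus to the pyramidal cells of the CA fields in a loop of excitatory synapses held in check by local interneurons. It carries dense serotonin and acetylcholine input and is known for its part in memory and in the control of the stress hormone response. Neurons in this tissue draw most of their energy from mitochondrial respiration, and astrocytes clear transmitter, buffer ions and water and supply serine and lactate.

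Each array gave 1 intensity per probeset on a linear scale, and a probeset is a set of short probes against 1 transcript. Of 31042 probesets that were not controls, 21645 exceeded an intensity of 30 in no fewer than 50% of the FSL arrays and of the FRL arrays and were tested. The array medians lay between 57.7 and 63.0, and 70.1 to 71.7% of the probesets were above 30 in each array. Prox1, which marks the granule cells of the dentate gyrus, had intensities of 338 to 511 in the 21 hippocampus arrays, against 101 to 147 in the P/FC arrays of cohort 1, and no hippocampus array overlapped with a P/FC array. Dsp, which is also enriched in granule cells, was likewise separated. Calb1, the third granule cell marker, was not (medians of 755 in hippocampus and 891 in P/FC). Of 12 pyramidal cell markers 4 were separated, of 7 thalamus markers 1 (Ntng1) and of 7 striatum markers 0.

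A pair of technical differences stood beside the comparison. Transthyretin (Ttr), the main secreted protein of the choroid plexus, was at 12462 and 13151 in 2 FSL arrays (replicates 3 and 6) and at 158 to 492 in the other 7. In FRL rats 3 arrays (replicates 1, 8 and 11) were at 8856 to 10282 and the other 9 at 79.4 to 582. Both lines held arrays high and low in Ttr. The choroid plexus score differed by 0.15 between FSL and FRL arrays (two-sided exact permutation p = 0.700), and of 7 choroid plexus markers all were positive and 0 were called. The control probesets of Actb gave a log2 ratio of 3′ over 5′ signal of 0.60 ± 0.034 in FSL arrays (SD, n = 9) and 0.72 ± 0.094 in FRL arrays (SD, n = 12), and this ratio, a usual control of RNA integrity and labelling, differed between the lines (two-sided exact permutation p = 4.49e-04, adjusted p = 0.00180 over 4 tests). For Gapdh the corresponding difference was -0.043 (exact permutation p = 0.165).

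At an adjusted p under 0.05 (limma, Benjamini-Hochberg over all tested probesets), 341 probesets differed between FSL and FRL rats, 1.58% of those tested. In FSL rats 125 were higher (0.578%) and 216 were lower (0.998%). The changes were mostly small. The median fold among the 341 was 1.29, and 262 were under 1.5-fold, 54 between 1.5- and 2-fold and 25 at 2-fold or more (8 higher and 17 lower in FSL). At an unadjusted p under 0.05 there were 2593 probesets (12.0%), where 1082 would pass with no difference at all. The intensities of all 9 FSL arrays lay above or below those of all 12 FRL arrays for 54 probesets (0.249%), and 52 of these were among the 341. A gene symbol was given for 243 of the 341, which stood for 227 genes. With 1 probeset for each gene, its brightest, 190 of 11300 genes differed (1.68%). With the Actb ratio as a covariate 89 probesets passed (24 higher and 65 lower), and without the 5 arrays high in Ttr 130 passed (46 higher and 84 lower).

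**Figure D1:**
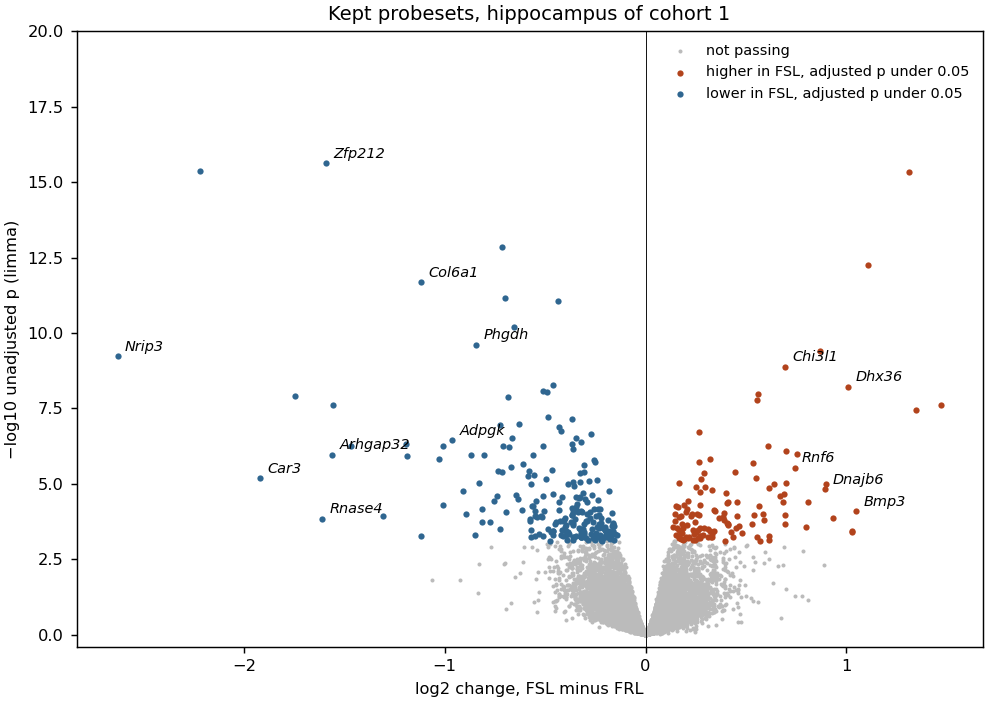
Difference between FSL and FRL rats (log2 intensity, x axis) and -log10 of the unadjusted p (y axis) for each of the 21645 tested probesets, with 125 higher in FSL in red, 216 lower in blue and the rest in grey. The decreases reach further than the increases, from Nrip3 at -2.63 to rises of about 1 on the log2 scale among the genes named.

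The 15 named genes with the largest increases in FSL rats had log2 differences between 0.67 and 1.05, and in 4 of them the lines did not overlap. Dhx36, a helicase that unwinds G-quadruplex structures in RNA and DNA, had intensities of 218, 332 and 371 (lowest, median and highest) in the FSL arrays, against 116, 148 and 206 in the FRL arrays. Every FSL array was above every FRL array at this probeset, and the log2 difference was 1.01 ± 0.11 (SE, adjusted p = 8.81e-06). The other tested probesets of Dhx36 overlapped between the lines and did not pass (log2 0.19, 0.19, 0.09 and 0.05, smallest adjusted p = 0.0904). The rise of Dhx36 thus held for a single probeset. The study assayed the transcript of this probeset without a gene name, and its real-time PCR gave a smaller rise than the array. Chi3l1, a secreted chitinase-like glycoprotein made by activated astrocytes, had 176, 219 and 248 in FSL and 107, 133 and 148 in FRL. The lines did not overlap for Chi3l1, with a log2 difference of 0.69 ± 0.069 (adjusted p = 2.22e-06).

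Rnf6, a RING-type ubiquitin ligase, and Usp12, a deubiquitinase, showed narrow ranges in FSL and wide ones in FRL. Rnf6 had 172, 182 and 196 in FSL against 78.6, 111 and 156 in FRL (log2 0.74 ± 0.12, adjusted p = 0.00103). Usp12 had 129, 137 and 149 in FSL against 42.6, 87.8 and 124 in FRL (log2 0.70 ± 0.15, adjusted p = 0.0139). Neither gene overlapped between the lines. Dnajb6, a co-chaperone that keeps aggregation-prone proteins soluble, was at 576, 995 and 1563 in FSL and at 444, 526.2 and 832 in FRL (log2 0.90 ± 0.16, adjusted p = 0.00363), and 1 FSL array lay inside the FRL range.

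The largest increase among the named genes was that of Bmp3, and others were seen for Prelp and Trhr. Bmp3, a ligand of the BMP family that opposes other BMPs, had 60.1, 75.9 and 96.7 in FSL against 20.8, 39.7 and 72.5 in FRL (log2 1.05 ± 0.22, adjusted p = 0.0121), and 3 FSL arrays lay inside the FRL range. Prelp, a leucine-rich proteoglycan of the extracellular matrix, differed by 0.80 on the log2 scale (adjusted p = 0.0260). Trhr, the receptor of thyrotropin-releasing hormone, had 80.1, 117 and 154 in FSL and 38.1, 58.3 and 109 in FRL (log2 0.81 ± 0.16, adjusted p = 0.00742). The ranges of Prelp and Trhr overlapped.

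Pkp4, a plakophilin of cell junctions, had 179, 192 and 235 in FSL and 42.3, 91.8 and 199 in FRL at the probeset that passed (log2 1.03 ± 0.24, adjusted p = 0.0311). Its other probeset, with medians of 962 in FSL and 953 in FRL, differed by 0.01. The rest of the 15 largest increases were Mfsd10, Zbtb14, Endod1, Nat8f1, Dennd2b and Nom1, with log2 differences from 0.67 to 0.93. They encode a membrane transporter, a zinc finger protein, an endonuclease-domain protein, an acetyltransferase, an activator of Rab GTPases and a nucleolar protein. All but Chi3l1, Dhx36, Rnf6 and Nat8f1 of the 15 missed the threshold with the Actb ratio as a covariate. Without the 5 arrays high in Ttr, Pkp4, Dnajb6, Trhr, Usp12, Dennd2b and Nom1 missed it.

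The decreases were larger. Nrip3, which encodes a nuclear receptor-interacting protein, had 20.6, 44.3 and 70.3 in FSL and 79.2, 282 and 464 in FRL, with no overlap, and was 6.19-fold lower in FSL (log2 -2.63 ± 0.25, adjusted p = 1.08e-06). Of its other probesets, 1 was also lower (log2 -0.76, adjusted p = 0.00701), and the brightest, with medians of 1620 in FSL and 1706 in FRL, differed by -0.0070. The decrease of Nrip3 thus held for 2 of its 3 probesets and not for the brightest.

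Zfp212, a zinc finger protein, gave the smallest p of all named genes. It had 22.8, 30.9 and 34.9 in FSL, close to the filter limit, against 69.4, 93.2 and 100.3 in FRL, a log2 difference of -1.59 ± 0.072 (adjusted p = 3.27e-12). The second probeset of Zfp212 did not follow, with medians of 204 in FSL and 182 in FRL (log2 0.23, adjusted p = 0.0762). Col6a1, a chain of collagen VI in the basement membrane, had 46.1, 62.5 and 74.1 in FSL against 110.3, 128 and 149 in FRL. It was 2.17-fold lower in FSL with no overlap (log2 -1.12 ± 0.079, adjusted p = 7.44e-09).

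The enzymes Phgdh and Adpgk were lower in FSL. Phgdh, the enzyme of the first committed step of serine synthesis and a gene of astrocytes in the brain, had 161, 188 and 222 in FSL and 258, 342 and 423 in FRL (log2 -0.84 ± 0.077, adjusted p = 5.33e-07). Adpgk, an ADP-dependent glucokinase, had 76.1, 112 and 153 in FSL and 160.4, 206 and 350.2 in FRL (log2 -0.96 ± 0.13, adjusted p = 2.24e-04). Neither overlapped between the lines, and both probesets of Adpgk were lower.

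Abca1 is the transporter that exports cholesterol, and Abhd6 is a hydrolase of endocannabinoids. Abca1 had 92.5, 105 and 119 in FSL and 106, 207 and 311 in FRL (log2 -0.89 ± 0.19, adjusted p = 0.0135). Abhd6 had 22.4, 33.4 and 38.7 in FSL and 37.4, 75.3 and 106 in FRL (log2 -1.19 ± 0.17, adjusted p = 2.78e-04). Abca1 passed at 2 of 3 probesets, whereas the brighter probeset of Abhd6 differed by 0.02.

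Arhgap32, Limk1 and Wipi2 were lower as well. Arhgap32, a GTPase-activating protein that binds NMDA receptor complexes, had 56.4, 76.6 and 230.2 in FSL against 153, 243 and 552 in FRL (log2 -1.56 ± 0.23, adjusted p = 4.81e-04). A single FSL array reached into the FRL range. Limk1, the kinase that inactivates cofilin, differed by -0.85 (adjusted p = 0.0384), and Wipi2, which binds phosphoinositides at forming autophagosomes, by -0.83 (adjusted p = 0.00253). Tsc22d4, Fcrl2 and Zfp317 differed by -1.01, -1.01 and -1.03. The brighter probeset of Tsc22d4, with medians of 261 in FSL and 284 in FRL, differed by -0.087 (adjusted p = 0.589). With the Actb ratio as a covariate Abca1, Limk1, Wipi2 and Tsc22d4, as well as Car3 and Rnase4 below, missed the threshold, and the other 9 of the 15 largest decreases passed. Without the 5 arrays high in Ttr, Limk1 and Rnase4 were the ones of these 15 that missed it.

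**Figure D2:**
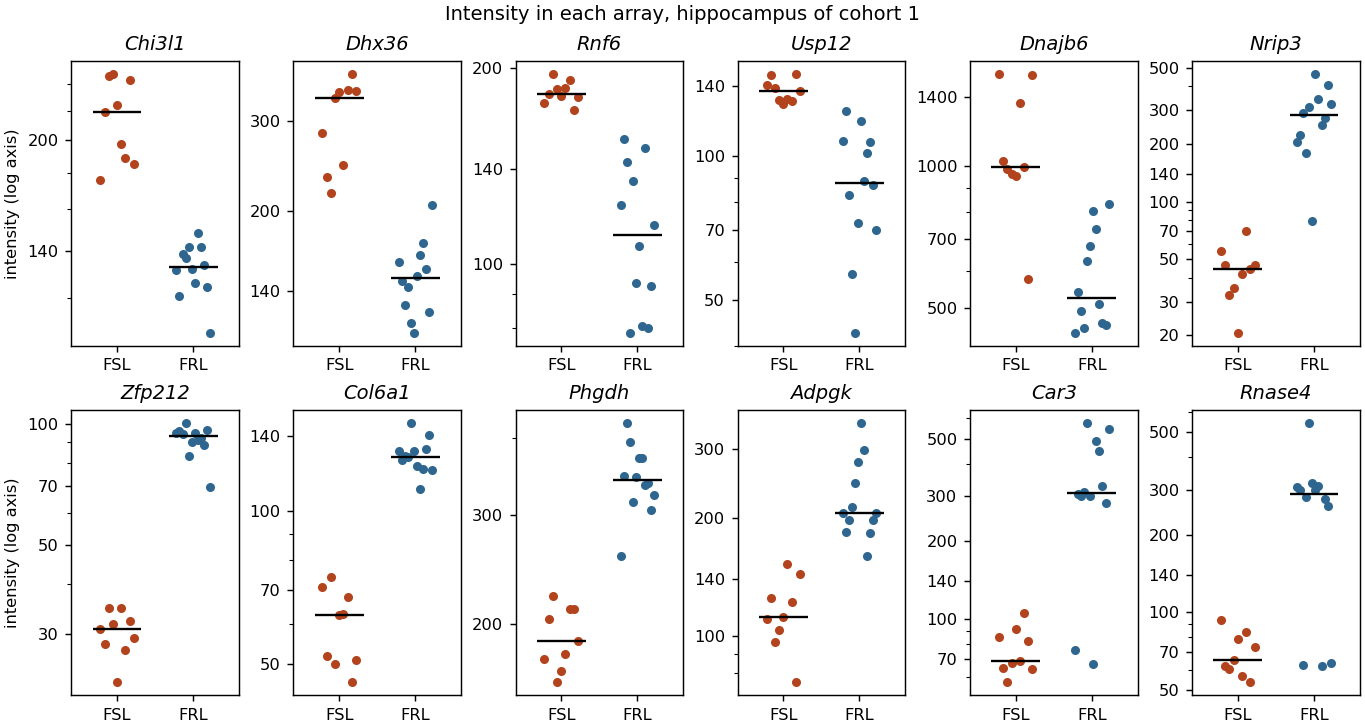
Intensity (log axis) in each of the 9 FSL arrays (red) and 12 FRL arrays (blue) for 12 named genes, with a line at the median of each line. FSL and FRL do not overlap in 9 of the panels, 1 FSL array of Dnajb6 and a few FRL arrays of Car3 and Rnase4 reach into the other line, and FRL arrays of Car3 and Rnase4 fall into a low and a high cluster.

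Car3 and Rnase4 behaved in another way, because the FRL arrays fell into 2 clusters. Car3, a carbonic anhydrase abundant in fat and muscle, was at 57.1, 69.0 and 106 in FSL. In FRL, 2 arrays (replicates 1 and 7) were at 67.1 and 75.8, inside the FSL range, and the other 10 were at 281 to 574. The log2 difference over all arrays was -1.92 ± 0.325 (adjusted p = 0.00193), and the second probeset gave -1.47.

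Rnase4, a secreted ribonuclease, was at 53.7, 65.2 and 93.5 in FSL. In FRL, 3 arrays (replicates 3, 9 and 12) were at 61.7 to 63.7 and the other 9 at 259 to 543 (log2 -1.61 ± 0.35, adjusted p = 0.0170, with -1.31 at the second probeset). The low FRL arrays were not the same for Car3 and Rnase4, and none was high in Ttr except replicate 1. Low FRL arrays were found in the other groups too. For Car3 there was 1 of 10 in the hippocampus of cohort 2 (78.8, against 310 to 608 in the others), 2 of 12 in the P/FC of cohort 1 and 1 of 10 in the P/FC of cohort 2. For Rnase4 the counts of arrays at or below the highest FSL array were 1 of 10, 3 of 12 and 2 of 10. In the hippocampus of cohort 2 the count depends on where the line is drawn, since the next FRL array was at 83.6, just over the highest FSL array at 81.2, and the FRL median was 323. The labels do not say which arrays of the regions come from 1 animal. Over the whole table a gap of at least 1 on the log2 scale with at least 2 arrays on each side split FRL arrays for 26 probesets, of which 4 were among the 341, and FSL arrays for 41, of which 0 were. The 4 were both probesets of Rnase4, that of Car3 and 1 unnamed probeset. The arrays high in Ttr were the high ones for 30 of the 41 probesets split in FSL and 7 of the 26 split in FRL.

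Across the 94 genes that were called and had more than 1 tested probeset, more than 1 was called for 14 and all for 8. In cohort 1 no gene had probesets called in both directions.

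**Figure D3:**
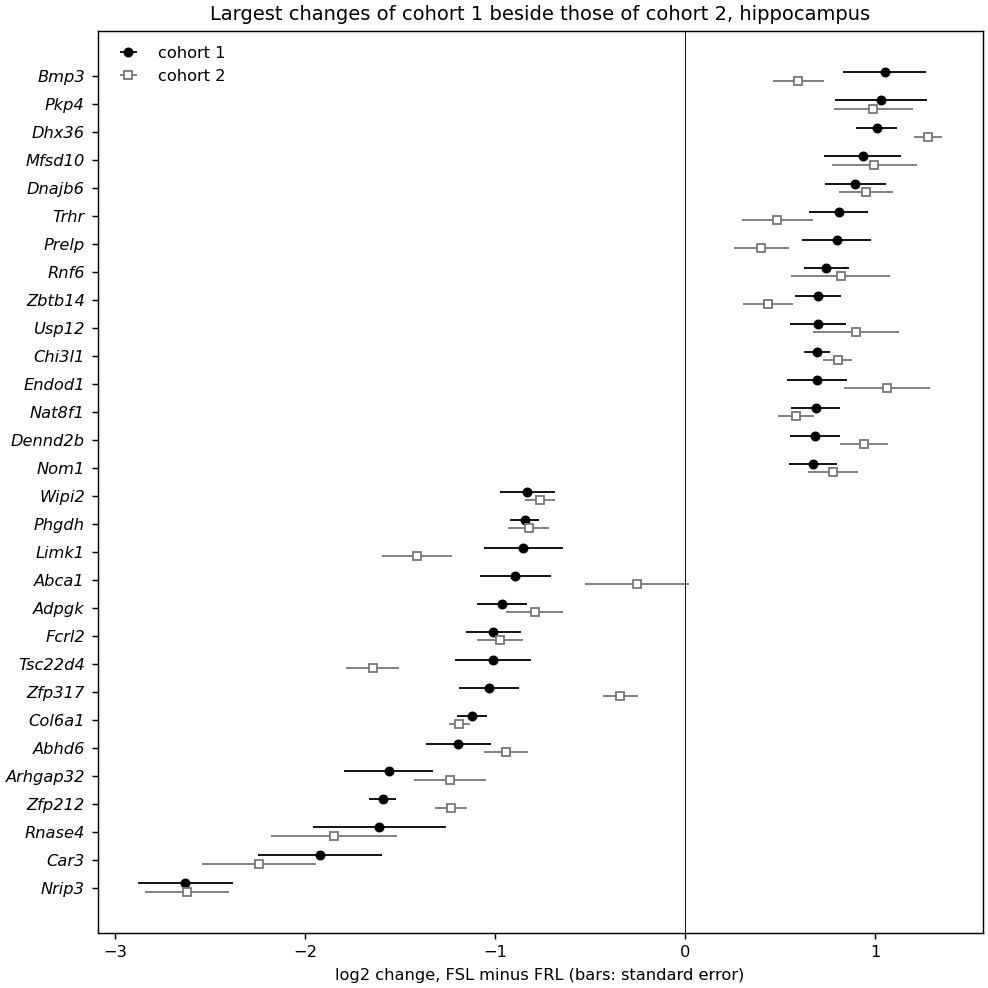
Log2 difference between FSL and FRL rats for the 15 named genes with the largest increase and the 15 with the largest decrease in hippocampus, in cohort 1 (filled circles) and cohort 2 (open squares), with bars of 1 standard error. All 30 have the same sign in both cohorts, and Abca1 and Zfp317 are closer to 0 in cohort 2.

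These 30 genes were chosen on cohort 1, and cohort 2 gave their values in other animals. All 30 had the same sign in the hippocampus of cohort 2, in which 24 also passed at an adjusted p under 0.05, and in 12 the lines did not overlap. No share of all probesets without overlap is given here for cohort 2, so the 12 cannot be set against it. The 6 that did not pass were Trhr, Prelp, Rnf6, Zbtb14, Zfp317 and Abca1. Nrip3 was at -2.63 in cohort 1 and -2.62 in cohort 2, and Col6a1 at -1.12 in cohort 1 and -1.19 in cohort 2. Dhx36 was at 1.01 in cohort 1 and 1.28 in cohort 2, and Chi3l1 at 0.69 in cohort 1 and 0.80 in cohort 2. Abca1 was at -0.25 in cohort 2, but the difference between the cohorts had an unadjusted p of 0.0644. Zfp317 (-0.34 in cohort 2) and Zfp212 (-1.23) had an unadjusted p of 0.00107 and 0.00231 for that difference. The brighter probeset of Zfp212 went the other way in cohort 2 and passed there (log2 0.29, adjusted p = 8.89e-04). Tsc22d4 was further from 0 in cohort 2 (-1.64, against -1.01 in cohort 1, unadjusted p = 0.0195 for the difference between the cohorts). Its brighter probeset was at -0.087 in cohort 1 and -0.12 in cohort 2 and passed in neither. In the P/FC of cohorts 1 and 2 all 30 also had the same sign. Per the study both regions came from the same animals, so the P/FC of cohort 1 does not stand for other animals. The study does not exclude that sequence differences account for some of the array differences, and this was not tested here.

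Over the 341 probesets, 335 had the same sign in cohort 2. There 505 probesets passed, of which 163 were shared with the same sign. The shared ones made up 47.8% of the cohort 1 calls and 32.3% of the cohort 2 calls. The difference between the cohorts passed the adjusted threshold in limma for 0 probesets, with 915 at an unadjusted p under 0.05 and a smallest adjusted p of 0.142. The named genes with the smallest unadjusted p were LOC100912041 (0.31 in cohort 1, 0.67 in cohort 2), Ndufb9 (0.09 and -0.08), Pdia4, a chaperone of the endoplasmic reticulum (-0.41 and -1.10), Rab27a, a GTPase of vesicle docking (-0.15 and 0.30), and Slc10a4, a carrier of synaptic vesicles (-0.26 and 0.33). Their unadjusted p lay between 2.91e-04 and 6.68e-04, and the adjusted ones did not pass.

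Of 51 gene lists, 15 had a called member and 36 had none. Subunits of the respiratory chain and ATP synthase, the largest list, had the most members that were higher in FSL. Of 75 oxidative phosphorylation subunits, 4 were higher in FSL and 0 were lower, beside 78 higher and 112 lower of all 11300 genes (1.68% called). A positive difference was found for 66 of the 75, against 5499 of all 11300 genes, and the median was 0.060, against -0.0035 for all genes. Cox4i1, a subunit of cytochrome c oxidase, had 3138, 3304 and 3472 in FSL and 2846, 2972 and 3134 in FRL (log2 0.15 ± 0.030, adjusted p = 0.00897). Every FSL array was above every FRL array, by a narrow margin.

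The other 3 were subunits of complex I. Ndufa9 had 682, 714 and 730 in FSL and 602, 633 and 687 in FRL (log2 0.15 ± 0.031, adjusted p = 0.0135). Ndufb6 was at 797, 881 and 1057 in FSL and at 657, 781 and 841 in FRL (log2 0.23 ± 0.049, adjusted p = 0.0147). Ndufs8, which carries iron-sulfur clusters, was at 623, 655 and 704 in FSL and at 505, 587 and 651 in FRL (log2 0.19 ± 0.044, adjusted p = 0.0279). The ranges of these 3 overlapped by 1 to 3 arrays of each line.

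Mitochondrial ribosomal proteins, which translate the genes of mitochondrial DNA, had 2 of 73 higher and 0 lower, a share near the 1.68% called over all genes, with 63 positive and a median of 0.077. Mrps2 had 271, 322 and 361 in FSL and 219, 263 and 295 in FRL (log2 0.33 ± 0.060, adjusted p = 0.00385). Mrps6 differed by 0.34 (adjusted p = 0.0112). Cytosolic ribosomal proteins had 0 of 40 called in either direction, 19 positive and a median of -0.0054. Of 36 proteasome subunits 1 was higher, Psmd14, a deubiquitinase of the proteasome lid (log2 0.21, adjusted p = 0.0110), with 29 positive and a median of 0.058. Psmd14 missed the threshold with the Actb covariate and without the 5 arrays high in Ttr.

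The called mitochondrial genes differed by at most 1.27-fold. In cohort 2 the medians were -0.026 for oxidative phosphorylation subunits and -0.025 for mitochondrial ribosomal proteins, and Ndufa9 and Ndufs8 were at 0.04 and 0.01. The difference between the cohorts was not tested for a list. With the Actb ratio as a covariate the medians of cohort 1 were 0.051 and 0.084, and of the 6 called members only Mrps2 passed. Without the 5 arrays high in Ttr the medians were 0.065 and 0.102, and again only Mrps2 of the 6 passed. The part of RNA integrity in these values was not tested.

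The promoters of Ndufa9 and Ndufs8 are shown because they were the called members that held the core of ETS family binding sites, which is common before respiratory genes. The 120 bases before each start are given 5′ to 3′ on the strand of the gene, from RefSeq on GRCr8, with matches to CGGAAG or its reverse complement CTTCCG in capitals. The array files give no coordinates.
Ndufa9 (chr4:161374171-161374290, minus strand): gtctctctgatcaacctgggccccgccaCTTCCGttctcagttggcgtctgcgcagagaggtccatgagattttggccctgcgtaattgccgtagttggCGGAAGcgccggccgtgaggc
Ndufs8 (chr1:210573699-210573818, minus strand): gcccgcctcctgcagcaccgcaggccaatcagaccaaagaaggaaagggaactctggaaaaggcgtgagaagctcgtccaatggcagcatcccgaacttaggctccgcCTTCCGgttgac
In the 250 bases before the start these letters were found on either strand in 33 of 68 oxidative phosphorylation genes (48.5%) and 21 of 59 mitochondrial ribosomal protein genes (35.6%). They were found in 25.7% of the 9382 genes with a tested probeset and a promoter and in 14.7% of all 27457 promoters. Cox4i1, Ndufb6, Mrps2 and Mrps6 held none in this window. They were also found in 15 of 32 proteasome genes (46.9%), so that they were not particular to the mitochondrial lists, and in 0 of 15 promoters of astrocyte markers and 0 of 11 of myelin genes.

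**Figure D4:**
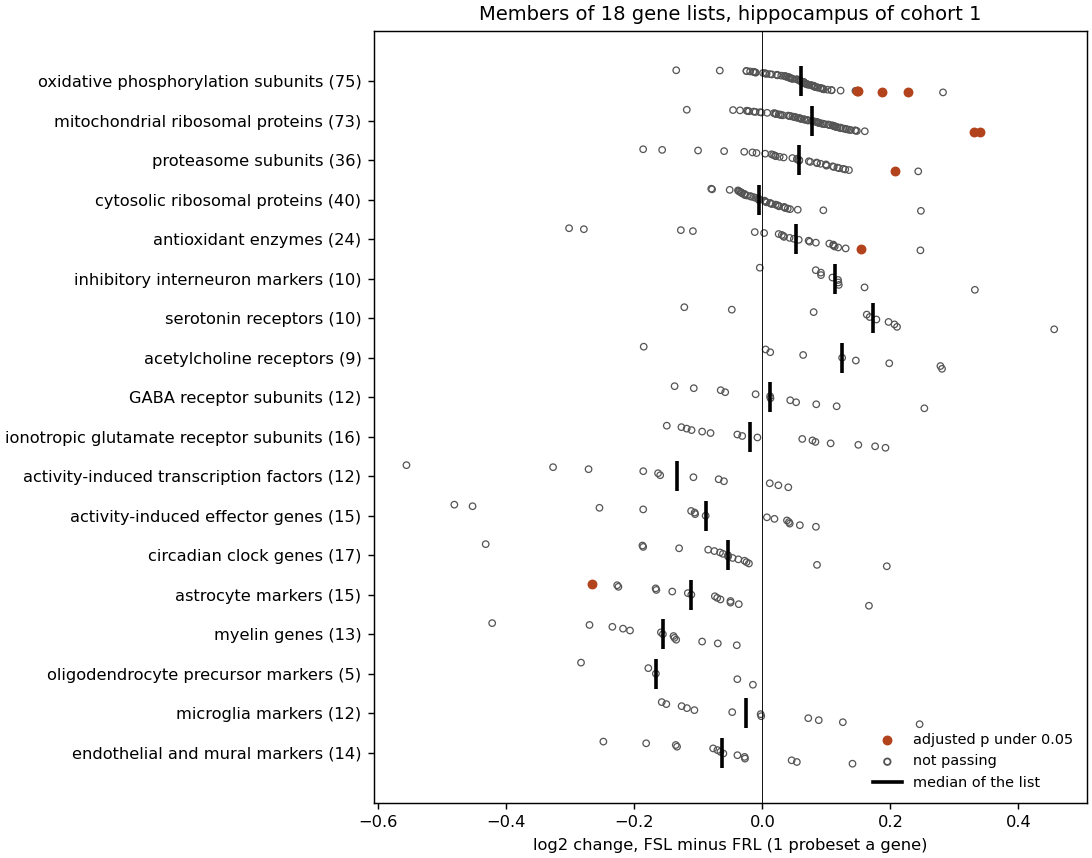
Log2 difference between FSL and FRL rats (x axis) for each member of 18 gene lists, 1 probeset a gene, with filled red points where the adjusted p was under 0.05, open points where it was not and a bar at the list median. Mitochondrial lists lie to the right of 0 (medians 0.060 and 0.077), astrocyte and myelin lists to the left (-0.111 and -0.155), and few single members pass.

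Astrocyte markers had mostly negative differences. Of 15 markers 1 was lower in FSL and 0 were higher, 14 had a negative difference and the median was -0.111 (-0.110 in cohort 2). Aqp4, the water channel of astrocyte endfeet, had 1053, 1139 and 1230 in FSL and 1264, 1349 and 1679 in FRL, with no overlap (log2 -0.27 ± 0.050, adjusted p = 0.00498). The mean of the 15 markers lay below the FRL median in all 9 FSL arrays. With the Actb ratio as a covariate the median was -0.074, and Aqp4 passed both with it and without the 5 arrays high in Ttr. In tissue RNA, fewer cells of a type and less RNA per cell cannot be told apart. Chi3l1, which was higher, and Phgdh, which was lower, are expressed by astrocytes as well but were not on the list.

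Myelin genes had 0 of 13 called, all 13 negative and a median of -0.155, while in cohort 2 the median was 0.024. The smallest p was that of Plekhb1 (log2 -0.22, adjusted p = 0.0736), followed by Opalin, a membrane protein of oligodendrocytes (log2 -0.42, adjusted p = 0.108), for which FSL replicate 3 was at 153 and the other FSL arrays at 304 to 430. Replicate 3 was also high in Ttr, and without the 5 arrays high in Ttr the median was -0.090. Oligodendrocyte precursor markers had 0 of 5 called and a median of -0.166, microglia markers 0 of 12 and -0.025, and endothelial and mural markers 0 of 14 and -0.063. Ctss, a lysosomal protease of microglia, was just outside the threshold (log2 -0.16, adjusted p = 0.0504).

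**Figure D5:**
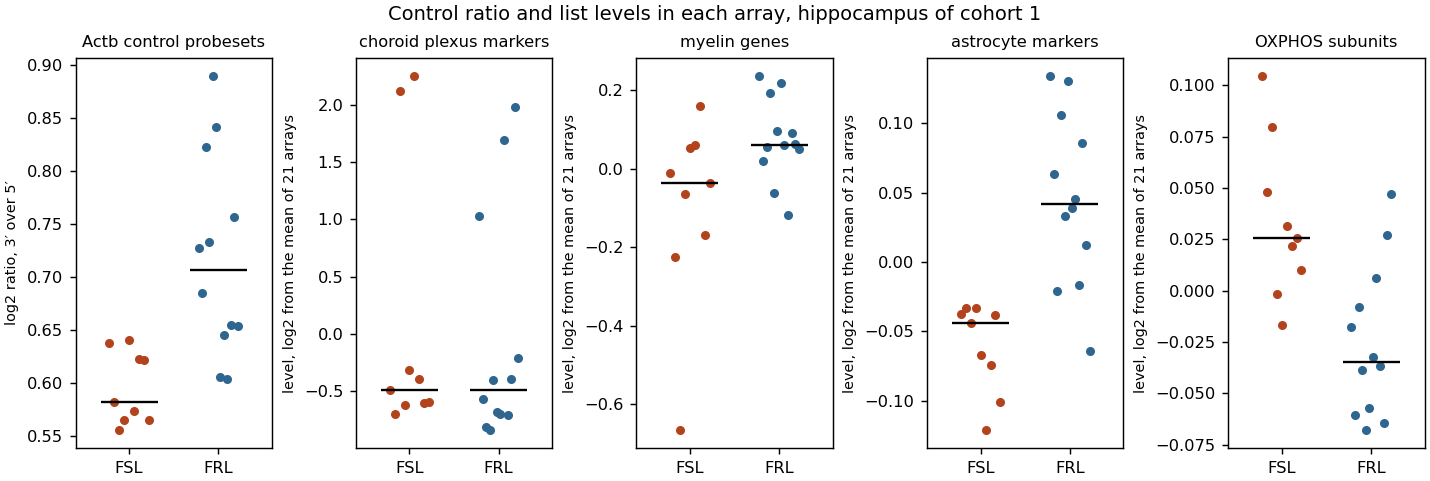
Values in each of the 9 FSL (red) and 12 FRL (blue) arrays for the log2 ratio of 3′ over 5′ Actb signal and for the mean level of 4 gene lists (log2 from the mean of 21 arrays), with a line at the median of each line. The Actb ratio is lower in FSL (0.60 against 0.72 on average), 2 FSL and 3 FRL arrays are high in choroid plexus markers, 1 FSL array is low in myelin genes, and all FSL arrays are below the FRL median for astrocyte markers and above it for OXPHOS (oxidative phosphorylation) subunits.

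None of the tested receptor genes on the lists for serotonin, acetylcholine, GABA and glutamate passed. Serotonin receptors had 8 of 10 members positive and a median of 0.173 (0.010 in cohort 2). Htr3a, the ligand-gated serotonin receptor, had an adjusted p of 0.146 and Htr7 of 0.162. Acetylcholine receptors had 8 of 9 positive and a median of 0.125 (0.146 in cohort 2), with Chrna7 at 0.28 (adjusted p = 0.279) and the muscarinic receptor Chrm3 at 0.12 (adjusted p = 0.343). With the Actb ratio as a covariate these medians were 0.093 and 0.0030. GABA receptor subunits had a median of 0.012 over 12 members. Grm5, a metabotropic glutamate receptor, was at 125, 152 and 168 in FSL and at 138, 237 and 358 in FRL (log2 -0.60, adjusted p = 0.0682).

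Inhibitory interneuron markers had 0 of 10 called, 9 positive and a median of 0.114, with Sst, the peptide somatostatin, at 477, 637 and 794 in FSL and 381, 463 and 704 in FRL (log2 0.33, adjusted p = 0.154). Among genes induced by neuronal activity none passed. Transcription factors of this kind had 0 of 12 called, 9 negative and a median of -0.134, and effectors 0 of 15 and a median of -0.089. Arc, an effector at synapses, was at 161, 271 and 371 in FSL and at 280, 373 and 560 in FRL (log2 -0.48, adjusted p = 0.107), and in cohort 2 it was at -0.56.

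Some single members of further lists passed, and counts of 1 or 2 in a list are to be read beside the 1.68% called over all genes. Stmn2, a protein of growing neurites that destabilises microtubules, had 2028, 2060 and 2135 in FSL and 1634, 1852 and 1985 in FRL, with no overlap (log2 0.16 ± 0.035, adjusted p = 0.0151). Rab3b, a GTPase of synaptic vesicles, was higher by 0.43 (adjusted p = 0.0406) as 1 of 11 genes of the Rab3 cycle. Dync2i1, an intermediate chain of the dynein of cilia, was higher with no overlap (130 to 176 in FSL, 86.5 to 126 in FRL, log2 0.44, adjusted p = 0.00133). Kifbp, which binds kinesins, was higher by 0.24, so that 2 of 42 motor genes passed.

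Among enzymes, Prdx5, a peroxiredoxin, was higher by 0.15 (adjusted p = 0.0390) as 1 of 24 antioxidant enzymes, 19 of which were positive. Pnp and Pfas, enzymes of purine salvage and purine synthesis, were lower (log2 -0.37, adjusted p = 0.0201, and log2 -0.30, adjusted p = 0.0427), 2 of 14 genes of these pathways. Scarb2, a lysosomal membrane receptor, was higher by 0.56 (adjusted p = 0.0411), 1 of 21 lysosomal genes. Col23a1 was lower as well (log2 -0.36, adjusted p = 0.0406), which with Col6a1 made 2 of 32 collagens. Rab3b, Stmn2, Prdx5, Pnp, Pfas, Kifbp and Col23a1 missed the threshold both with the Actb covariate and without the arrays high in Ttr. Dync2i1 and Scarb2 missed it with the Actb covariate but passed without the arrays high in Ttr.

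Other lists tied to stress, rhythm and excitability had no called member. The stress hormone axis had 0 of 8 called and a median of -0.0066, with the glucocorticoid receptor Nr3c1 at -0.06 (adjusted p = 0.560) and its co-chaperone Fkbp4 at 0.10 (adjusted p = 0.232). Neurotrophins and their receptors had 0 of 10 called and a median of -0.049, with Gfra1, a receptor of glial cell line-derived neurotrophic factor, at 0.19 and Vegfa at -0.12. Circadian clock genes had 0 of 17 called, of which 15 were negative, and a median of -0.054 (0.053 in cohort 2), with Per3 at -0.43 (adjusted p = 0.396). Genes of vesicle fusion had 0 of 23 called and a median of -0.0075, potassium channels 0 of 54 and 0.0014, and calcium and sodium channels 0 of 31 and -0.0063. Of 54 heat shock proteins and DnaJ co-chaperones only Dnajb6 passed, and of 8 carbonic anhydrases only Car3, with 6 of the 8 negative.

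The study had assayed some genes singly, chosen on arrays that include these, so that their counts are not independent evidence. Of 9 that were tested here, 4 were lower in FSL and 0 higher. Tmem176a, a membrane protein of immune cells, had 84.7, 109 and 126 in FSL and 133, 163 and 209 in FRL, with no overlap (log2 -0.63 ± 0.081, adjusted p = 8.26e-05). Arhgap32, Car3 and Rnase4 are given above. Htr1a (0.21), Chrna7 (0.28), Htr2a (0.08), Gabrb2 (0.05) and Chrm2 (0.06) did not pass at the adjusted threshold. At an unadjusted p under 0.05, 2 of the 9 were higher, among them Chrna7 (limma, unadjusted p = 0.0190). Each value is that of the brightest tested probeset of the gene, and other probesets can differ. The study used an unadjusted p under 0.05. At that threshold it reports Htr2a as higher in FSL hippocampus of cohort 1, at each probeset it lists and by real-time PCR. There it also reports Chrna7 as higher at a single probeset and by PCR, and Htr1a at a single probeset but not by PCR. A list of 8 housekeeping and invariant genes, of which Hprt1, Mrfap1, Phpt1 and Cdipt served the study as such and the others are common choices, had 0 called, with the smallest p for Hprt1 (log2 0.09, adjusted p = 0.198) and Sdha (log2 0.08, adjusted p = 0.323). At an unadjusted p under 0.05, 3 of the 8 were higher and 0 lower, beside 667 and 731 of all 11300 genes. The mean of the list lay above the FRL median in all 9 FSL arrays. The study reports some variation of Hprt and normalised its PCR to its invariant genes instead.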

How the data were processed

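Total RNA of 21 right hippocampi was hybridised by the authors to 1-colour Affymetrix rat genome arrays, 1 array a rat. Normalisation by the authors used Rosetta Resolver, and the deposited values are background-subtracted intensities per probeset on a linear scale, of which 4769 of 653079 in these arrays were at or below 0. Lines and cohorts came from the labels, which call the samples biological replicates. Per the methods, each cohort was labelled in 2 batches with the lines spread equally. The labels do not give the batch, so it is not in the model. All 21 arrays were used, and precision is limited by their number.

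Intensities under 1 were set to 1 and log2 transformed. Controls (57 probesets) were left out, and, following the methods, a probeset was tested where no fewer than 50% of the FSL arrays and of the FRL arrays exceeded 30. Cohort 1 was fitted alone in limma 3.58.1 (R 4.3.3) with lmFit and eBayes, without a replicate block, and p-values were adjusted by Benjamini-Hochberg over 21645 probesets at a threshold of 0.05. The difference between cohorts came from a joint fit of all 39 hippocampus arrays. Quality measures were compared by a two-sided exact permutation test over 293930 assignments, in Python 3.11.15 with numpy 2.4.6, pandas 2.3.3 and scipy 1.17.1. The fit was tested on simulated data.

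A gene was named only where the platform annotation gave 1 symbol (20826 probesets, 20758 matched to RefSeq), and 436 probesets with several symbols and 9780 with none stayed unnamed. In gene lists the brightest tested probeset stood for a gene. The text names the 15 largest increases and 15 largest decreases among called genes, 1 probeset a gene, up to 4 called members of a list by adjusted p or otherwise the 2 with the smallest p, the genes assayed singly by the study, housekeeping and invariant genes, the 5 named genes with the smallest p between cohorts, and further probesets of the first 30 genes. The members and lists were chosen with earlier results of these data known. Alternatives were ordinary variances, no filter, a filter of 100 or in either line, quantile normalisation, 16 added before log2, a joint fit, the first residual component, the Actb, Gapdh or choroid plexus measure as a covariate, a replicate block, the mean of probesets of a gene, each replicate left out, and, chosen after seeing the data, the arrays high in Ttr left out.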

Additional observations from a re-analysis of the deposited data

Results flagged for a closer look

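Of 125 probesets of named genes, 11 had 1 of the 9 FSL arrays far from the other FSL arrays by Dixon's criterion (a gap of more than 0.493 of the range), where chance alone gives about 1 in 20. FSL replicate 3, which was high in Ttr, was the lowest for Opalin (153, the others 304 to 430, ratio of gap to range 0.664), Pde10a (238, 277 to 297, 0.683), Qdpr (1204, 1477 to 1749, 0.548) and Pfas (78.9, 101 to 118, 0.6005). FSL replicate 1 was the lowest for Ntng1 (85.3, 108 to 131, 0.548), Klf4 (19.1, 31.3 to 45.5, 0.569) and the second probeset of Rnase4 (53.4, 73.4 to 98.9, 0.516), and the highest for Bhlhe40 (311, 168 to 228, 0.505). Dnajb6 was lowest in FSL replicate 8 (576, 950.3 to 1563, 0.501), Wipi2 in FSL replicate 9 (97.4, 112 to 128, 0.506) and Vegfa in FSL replicate 2 (179, 231 to 251, 0.758).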

How the results depend on the processing

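The 341 probesets (125 higher and 216 lower in FSL) became 89 (24 and 65) with the Actb ratio as a covariate, 130 (46 and 84) without the 5 arrays high in Ttr, 516 (207 higher) in the joint fit of both cohorts and 588 (228 and 360) with the first residual component removed. Of these, 86 of the 89 and 120 of the 130 were among the 341. Leaving out the Ttr arrays also removes 5 of 21 samples. For the other settings the cause was not tested. Leaving out 1 replicate gave 257 (without FSL replicate 4) to 413 (without FRL replicate 12) probesets, 89 (without FSL replicate 4) to 145 higher and 161 (without FSL replicate 5) to 268 lower. With the mean of the probesets of a gene 192 of 11300 genes passed (81 and 111), beside 190 with the brightest probeset. Under the other alternatives the count of probesets lay between 273 (Gapdh ratio as a covariate) and 430 (ordinary variances). The 50 called probesets of named genes kept their sign in each of these settings fitted by probeset in which they were tested (26 of the 50 under the filter of 100), and 34 missed the threshold with the Actb covariate and 23 without the Ttr arrays. Leaving out a replicate was run for the counts only. Among values that had not passed, Calb1 (-0.011), Dsp (-0.038) and Syt1 (-0.075) changed sign with the Actb covariate, and Dsp (-0.026) without the Ttr arrays.

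Replicate numbers were shared between the lines, but same-numbered arrays correlated at -0.110 to 0.425, 5 of 9 pairs over 0.1, and 3 FSL arrays correlated best with their own number. The numbers were not taken as pairs. With the replicate block 319 probesets passed (97 higher and 222 lower), of which 198 were among the 341, and 13 of the 50 named calls missed the threshold (Pkp4, Mfsd10, Dnajb6, Prelp, Limk1, Stmn2, Prdx5, Pfas, Cox4i1, Ndufa9, Psmd14, Kifbp and Col23a1). With the block the share at an unadjusted p under 0.05 was 18.6%, and without it 12.0%. Probesets near an intensity of 30, such as Zfp212 in FSL, are measured close to background.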

Other observations

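Probesets that met the intensity filter in 1 line only were left out of the tests, and there were 1037 of them. The filter picks them by a difference between the lines, so their values are given as a description with no test, and the genes given here were chosen after their values were seen. Ephx2, the soluble epoxide hydrolase that breaks down epoxides of fatty acids, was at 14.5, 20.99 and 42.6 (lowest, median and highest) in FSL and at 58.3, 100.2 and 117 in FRL. Fam111a, a protease of the cell nucleus, was at 15.5, 22.3 and 79.7 in FSL and at 72.1, 144 and 191 in FRL. Dguok, a kinase of deoxyguanosine in mitochondria, was at 1.0, 1.77 and 7.56 in FSL and at 13.7, 36.6 and 82.5 in FRL. Most FSL values of these 3 lie below the filter, and those of Dguok are close to the floor of 1.

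Of 224 called genes with a place in the RefSeq gene order, 19 pairs had at most 2 coding genes between them, and 9 of these pairs changed in the same direction. Cx3cl1, the chemokine by which neurons signal to microglia, and Pllp, a myelin protein, were both lower on chromosome 19 (log2 -0.72 with an adjusted p of 7.75e-10, and -0.27). Limk1 and Rfc2 were both lower on chromosome 12, and Vopp1 and Lancl2 were both higher on chromosome 4. Dync2i1 (0.44) and its neighbour Esyt2 (-0.37) on chromosome 6 went in opposite directions. Whether neighbours share a direction more often than other genes was not tested.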
